A study of Mus musculus with 4 samples.

Results

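Cd14, Tlr4, Ly96 and Myd88 encode proteins that carry the lipopolysaccharide (LPS) signal into a macrophage. All 4 genes kept a strong H3K4me3 peak in macrophages without Wbp7, with and without LPS. This was common: of all regions formed from the 4 peak lists, 44.8% had a peak as strong by score in every list. A peak of any score in every list was found at 65.4%. The mark at Cd14, Ly96 and Myd88 was longer after LPS in both genotypes, most so at Myd88, with ratios of 1.384 and 1.385. Only Myd88 was at least 1.1 times longer in both, and Tlr4 had ratios of 1.020 in Wbp7+/- and 0.907 in Wbp7-/- cells. Of all regions found in both lists compared, 21.1% in Wbp7+/- and 17.5% in Wbp7-/- cells were at least 1.1 times longer. How many were longer in both genotypes was not counted. The genes other than Myd88 differed between libraries by at most 647 bp. The members are named genes, and for each of them all peaks overlapping a fixed window of the mm9 mouse genome were taken. The windows were chromosome 18 from 36880000 to 36892000 for Cd14, chromosome 4 from 66483000 to 66495000 for Tlr4, chromosome 1 from 16673000 to 16684000 for Ly96 and chromosome 9 from 119240000 to 119255000 for Myd88. Together they held 17 of the 64314 peaks in 4 lists. Where overlapping peaks of the 4 lists were joined into regions, these 17 formed 4 regions of 18786, 1 per gene.

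LPS is a glycolipid of the outer membrane of Gram-negative bacteria. CD14, a surface protein held in the membrane by a glycosylphosphatidylinositol (GPI) anchor, takes up LPS and passes it to a complex of Toll-like receptor 4 (Tlr4) and MD-2, the product of Ly96. The loaded receptor pairs up and recruits adaptor proteins, among them MyD88, which starts the kinase cascade that activates NF-kB. H3K4me3, trimethylation of lysine 4 on histone H3, marks active promoters and often spreads further at genes that a cell transcribes strongly. Wbp7, also named Kmt2b, is one of the enzymes that place this mark, and the title of the series links it to the synthesis of GPI anchors. The peaks at these 4 genes therefore bear on whether the LPS receptor genes themselves carry the mark without the enzyme.

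The libraries were made by chromatin immunoprecipitation and sequencing from primary macrophages grown from bone marrow to day 7, from mice of a mixed background of C57BL/6 (94%) and 129/Ola (6%). The groups were untreated Wbp7+/- cells, Wbp7+/- cells given 10 ug/ml LPS for 4 h, untreated Wbp7-/- cells and Wbp7-/- cells given the same dose for 4 h. The Wbp7+/- cells, which serve as the control, lack 1 copy of the gene, and wild-type cells were not analysed here. The gene is called MLL2 in the sample titles, MLL4 in the source names and Wbp7 in the genotype labels. Each group held 1 library, so differences have no replicates behind them and are described without p-values. For the LPS-treated Wbp7+/- cells the header line says 24 h and the label 4 h, so the time of that library is uncertain. The lists held 17316, 17313, 14599 and 15086 peaks in the order of the groups above. Read depths are unknown, and both the number of peaks and the position of their edges depend on depth, since a peak ends where the signal no longer passes the caller's threshold. Annotated exons, introns and start sites of mm9 were not used here, so positions are given without them, and macrophage marker genes were not placed either.

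Every gene had a peak in every list. Over all regions, 65.4% had a peak in all 4 lists. Of the 16 combinations of gene and list, 15 held a single peak, and Myd88 held 2 in LPS-treated Wbp7-/- cells. The score in column 5 was 3100 for all 17 peaks. Scores pile up at this value, where the caller's p-value is most probably too small to be stored, and between 54.8% and 62.0% of the peaks of a list stood at or above it. Regions at this ceiling in all 4 lists numbered 8423, or 44.8% of all regions. The score thus puts the 4 genes in the strongest class of each list and cannot order them within it. The length covered by peaks, the sum of the peak widths, was used to describe them further.

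Myd88 carried the longest mark of the 4 in every list and Ly96 the shortest, as the map of peaks by library shows. Tlr4 was longer than Cd14 in each list. The median over the 8423 ceiling regions was between 2540 and 2745 bp per list. Ly96, at 2554 to 2969 bp, lay near it, and the other 3 genes lay above it in every list.

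**Figure D1:**
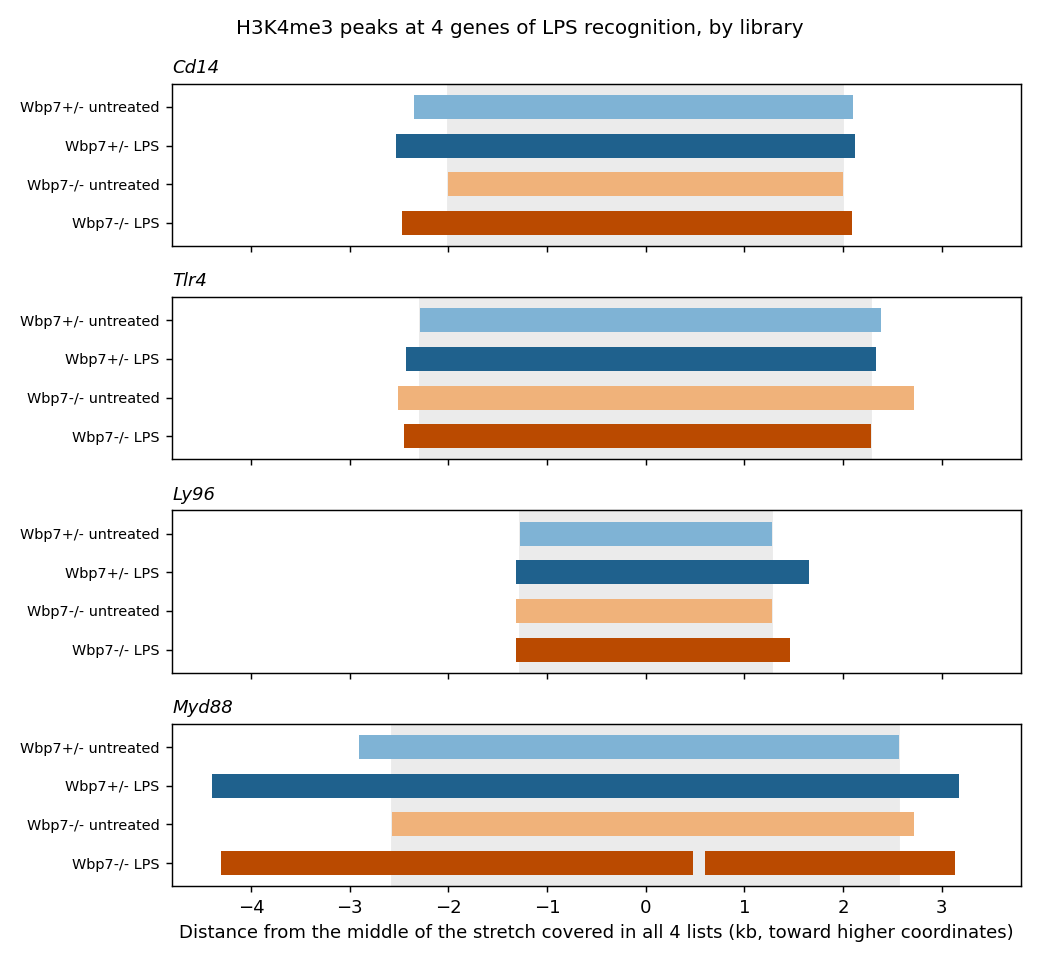
Peaks at Cd14, Tlr4, Ly96 and Myd88 in each of the 4 libraries, as bars along the distance in kb from the middle of the stretch that all 4 lists cover (grey). The bars of Myd88 reach further out on both sides in the LPS libraries, and the bar of LPS-treated Wbp7-/- cells has a gap of 118 bp.

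**Figure D2:**
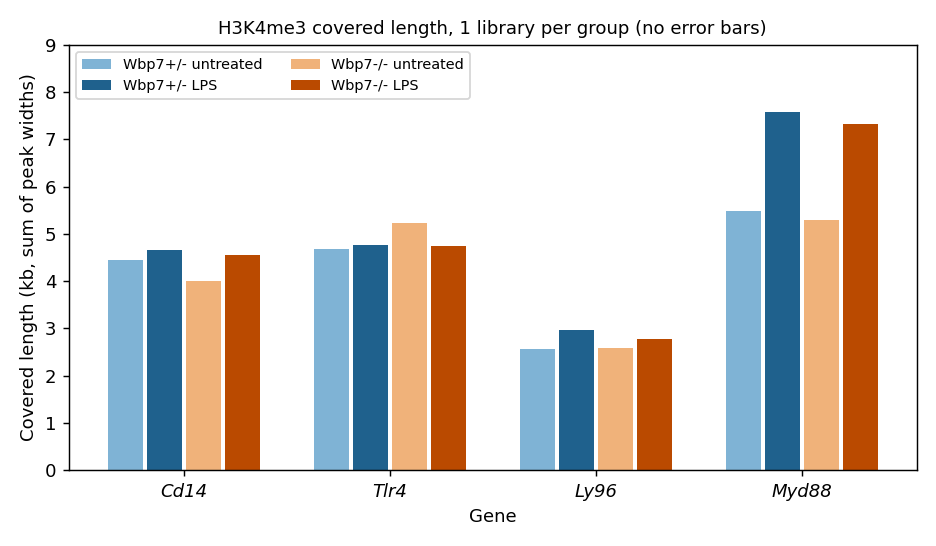
Covered length in kb at each gene, 1 bar per library, with no error bars because each group held 1 library. Myd88 measured 7572 and 7320 bp in the LPS libraries against 5472 and 5285 bp in the untreated ones.

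Cd14, the co-receptor that hands LPS to the receptor complex, had 1 peak in each list. In untreated Wbp7+/- cells it ran on chromosome 18 from 36882715 to 36887169 and measured 4455 bp. In LPS-treated Wbp7+/- cells it measured 4655 bp, in untreated Wbp7-/- cells 4008 bp and in LPS-treated Wbp7-/- cells 4560 bp. The untreated Wbp7-/- library gave the shortest peak, and the other 3 lay within 200 bp of each other. The peak was longer than at least 83.8% of the ceiling regions of its list in each library. A core of 4008 bp, 86.1% of the joined region, was covered in all 4 lists. A further 439 bp were covered in every list but that of untreated Wbp7-/- cells, and of these 348 bp lay at the edge of lower coordinates.

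At Cd14 the ratio of Wbp7-/- to Wbp7+/- covered length was 0.900 in untreated cells and 0.980 after LPS. Of the ceiling regions, 9.4% had a ratio as low as 0.900 in untreated cells. The ratio of LPS to untreated length was 1.045 in Wbp7+/- and 1.138 in Wbp7-/- cells. The ratios farthest from 1, 0.900 and 1.138, share the short peak of untreated Wbp7-/- cells. Whether CD14 protein reaches the cell surface was not measured by these libraries.

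Tlr4, the signalling receptor of the complex, also had 1 peak in each list. It ran on chromosome 4 from 66488179 to 66492847 in untreated Wbp7+/- cells and measured 4669 bp. LPS-treated Wbp7+/- cells gave 4763 bp, untreated Wbp7-/- cells 5223 bp and LPS-treated Wbp7-/- cells 4735 bp. Here the untreated Wbp7-/- library gave the longest peak, in contrast to Cd14, and the other 3 lay within 94 bp of each other. The core covered in all 4 lists measured 4566 bp, 87.4% of the joined region. Untreated Wbp7-/- cells alone covered 385 bp more, 330 bp of it at the edge of higher coordinates.

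The covered length at Tlr4 in Wbp7-/- cells was 1.119 times that in Wbp7+/- cells without LPS and 0.994 times with LPS. Of the ceiling regions, 23.4% had a ratio of 1.119 or more in untreated cells. With LPS the length was 1.020 times the untreated one in Wbp7+/- and 0.907 times in Wbp7-/- cells. The sign of the LPS difference was therefore opposite in the genotypes, as it was at 35.2% of the ceiling regions. The sign of the genotype difference was opposite with and without LPS at Tlr4 and at Ly96, as at 29.7% of the ceiling regions. Tlr4 stood far from other regions. The nearest other region lay 1.22 Mb away, the median for ceiling regions was 17.7 kb, and 10 of the 8423 ceiling regions, Tlr4 included, were as far from any other.

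Ly96 encodes MD-2, the small secreted protein that binds LPS within the receptor complex. Its peak ran on chromosome 1 from 16677816 to 16680369 in untreated Wbp7+/- cells and measured 2554 bp. The other lists gave 2969 bp in LPS-treated Wbp7+/- cells, 2594 bp in untreated Wbp7-/- cells and 2772 bp in LPS-treated Wbp7-/- cells. Both LPS libraries gave longer peaks than both untreated ones, as at Cd14. The edge of lower coordinates moved by at most 39 bp among the 4 lists. The edge of higher coordinates lay 376 bp further out with LPS in Wbp7+/- cells and 181 bp further out in Wbp7-/- cells, and these 181 bp were covered in both LPS lists only. Over the edges of all ceiling regions, the median absolute shift with LPS was 89 bp in either genotype. A shift as far outward as 376 bp was seen for 6.10% of the edges in Wbp7+/- cells, and one as far as 181 bp for 11.40% in Wbp7-/- cells.

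The untreated peaks of Ly96 differed by 40 bp between the genotypes, a ratio of 1.016. After LPS the difference, Wbp7-/- minus Wbp7+/-, was -197 bp, a ratio of 0.934. The core of 2554 bp, 86.0% of the joined region, was the whole peak of untreated Wbp7+/- cells.

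Myd88 encodes the adaptor that links the receptor to downstream kinases, and its mark differed most between libraries. The peak of untreated Wbp7+/- cells ran on chromosome 9 from 119246880 to 119252351 and measured 5472 bp. With LPS it ran from 119245391 to 119252962 and measured 7572 bp. Untreated Wbp7-/- cells had a peak of 5285 bp from 119247215 to 119252499. LPS-treated Wbp7-/- cells had a peak of 4787 bp from 119245478 to 119250264 and one of 2533 bp from 119250383 to 119252915, together 7320 bp. Both LPS values, 7320 and 7572 bp, lay above both untreated ones, 5285 and 5472 bp, an order also seen at Cd14 and Ly96. How many other regions show this order was not counted. By covered length Myd88 ranked 485 of 16208 regions in untreated and 144 of 16438 in LPS-treated Wbp7+/- cells. In Wbp7-/- cells it ranked 538 of 13981 untreated and 164 of 14243 after LPS.

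The longer mark at Myd88 was added on both sides. At the edge of lower coordinates the peak reached 1489 bp further out with LPS in Wbp7+/- cells and 1737 bp further in Wbp7-/- cells. Shifts as large were seen for 0.84% and 0.56% of the edges of ceiling regions. At the other edge the shifts were 611 and 416 bp, matched or exceeded by 3.53% and 5.16% of edges. RefSeq places Myd88 on the minus strand (in GRCm38), so the larger extension lies in the direction of its transcription. The smaller extension lies on the side of its start, where the next gene, Acaa1a, is transcribed away from Myd88. How the extensions divide between these genes was not tested. In total 1818 bp, 24.0% of the joined region of 7572 bp, were covered with LPS in both genotypes but in no untreated library, of which 1402 bp formed 1 stretch from 119245478 to 119246879. The other genes held 113 bp (Cd14), 181 bp (Ly96) and 0 bp (Tlr4) of this kind. Of the ceiling regions, 151 (1.79%) had at least 1000 bp covered in both LPS lists only, and 19 had as much in both untreated lists only. Myd88 was 1 of the 151. A fixed number of bases is easier to reach in a long region. As a share of the joined region, 1.3% of the ceiling regions had as much as the 24.0% of Myd88.

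**Figure D3:**
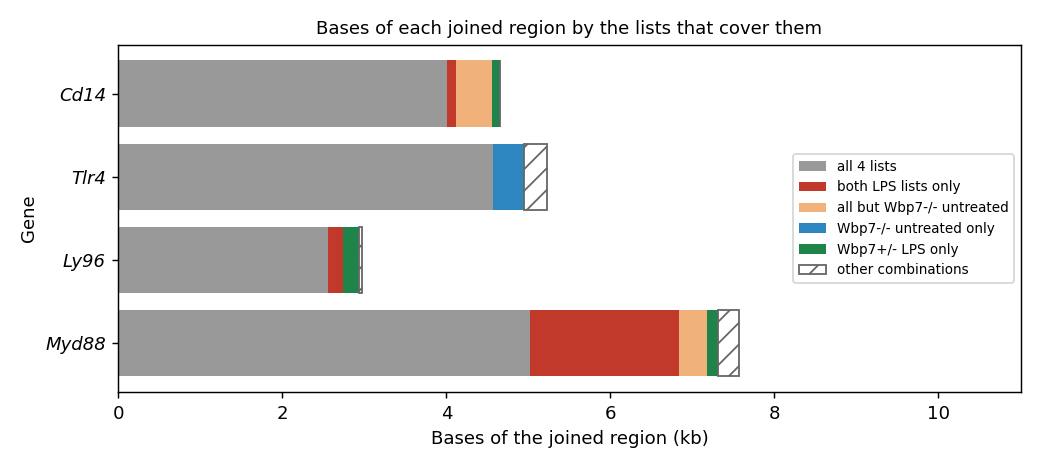
Bases of each joined region in kb, split by the lists that cover them. All 4 genes have a core present in every list, from 2554 bp at Ly96 to 5019 bp at Myd88, and the bases covered in both LPS lists only reach 1818 bp at Myd88.

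The gap of 118 bp in LPS-treated Wbp7-/- cells, from 119250265 to 119250382, lay inside the part that the other 3 lists cover. A region split in this list alone was found for 159 of the 8423 ceiling regions (1.89%). The gap decides how the gene is read if a single peak is taken in place of the covered length. By its widest peak, the LPS-treated Wbp7-/- mark was 0.906 times the untreated one and 0.632 times that of LPS-treated Wbp7+/- cells. By the covered length the ratios were 1.385 and 0.967, and by the span from first to last base they were 1.407 and 0.982. Between the genotypes, the untreated Wbp7-/- mark of Myd88 measured 0.966 times the Wbp7+/- one.

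Of the 4 genes, 1 (Myd88) was matched in the RefSeq promoter table, whose build is GRCm38.p6. The 250 bases before its start are printed because the mark of Myd88 differed most with LPS. They lie at chr9:119340019-119340268 on the minus strand of GRCm38.p6, positions that cannot be set against the mm9 positions of the peaks. Capitals mark matches to 3 motifs, described after the sequence, which reads 5′ to 3′ in the direction of the gene.
Myd88: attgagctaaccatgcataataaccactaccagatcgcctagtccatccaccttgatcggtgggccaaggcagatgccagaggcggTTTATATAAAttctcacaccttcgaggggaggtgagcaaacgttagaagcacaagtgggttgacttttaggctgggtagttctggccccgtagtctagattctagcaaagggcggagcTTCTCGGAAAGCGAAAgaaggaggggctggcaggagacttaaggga

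The first capitals hold the TATA box letters TATAAA on both strands, in overlapping copies from 164 to 155 bases before the start. The second hold a core of the STAT site, TTCNNNGAA, from 46 to 38 bases before the start, and a core of the interferon-stimulated response element, GAAANNGAAA, from 40 to 31 bases before it, which overlap by 3 bases. Both strands were searched. The response element core was present in 2.98% of the 32851 promoters of the table, the STAT core in 7.02% and the TATA box letters in 12.4%. A GC box, GGGCGG, was present from 55 to 50 bases before the start, as in 32.7% of promoters. The CCAAT box was not found in these 250 bases and was found in 33.8% of promoters. The core of PU.1 sites, GAGGAA, and the NF-kB consensus were not found either, and were found in 23.3% and 7.25% of promoters. The stretch holds 9 CpG dinucleotides, against a median of 6. A match of letters does not show that a factor binds there. In the gene order of GRCm38, Acaa1a, an enzyme of peroxisomal fatty acid oxidation, follows Myd88 on the side of its start and lies on the opposite strand. How much of the peak belongs to either gene was not tested.

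Set side by side, the effect of LPS was read as a covered length at least 1.1 times longer or shorter. In Wbp7+/- cells 2 of the 4 genes (Ly96 and Myd88, ratios 1.162 and 1.384) were longer by this measure and 0 were shorter, where 21.1% of the 15039 regions found in both of these lists were longer and 25.8% shorter. In Wbp7-/- cells 2 (Cd14 and Myd88, 1.138 and 1.385) were longer and 1 (Tlr4) shorter, where 17.5% of 13092 regions were longer and 25.1% shorter. Of the 8423 ceiling regions, to which all 4 genes belong, 14.5% were longer and 24.6% shorter in Wbp7+/- cells. In Wbp7-/- cells 13.9% of them were longer and 18.8% shorter. The median ratio of the 4 genes was 1.104 in Wbp7+/- and 1.103 in Wbp7-/- cells, and that of all regions 0.983 and 0.977. The ratio of Myd88 was matched or exceeded by 3.3% of the ceiling regions in Wbp7+/- and 2.8% in Wbp7-/- cells, and for the other 3 genes the shares were between 9.4% and 82.0%. Myd88 was the only one of the 4 past the 1.1 fold in both genotypes. How many of all regions were past it in both was not counted. Its log2 ratio was 0.47 in each, though the LPS time of the Wbp7+/- library is uncertain.

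**Figure D4:**
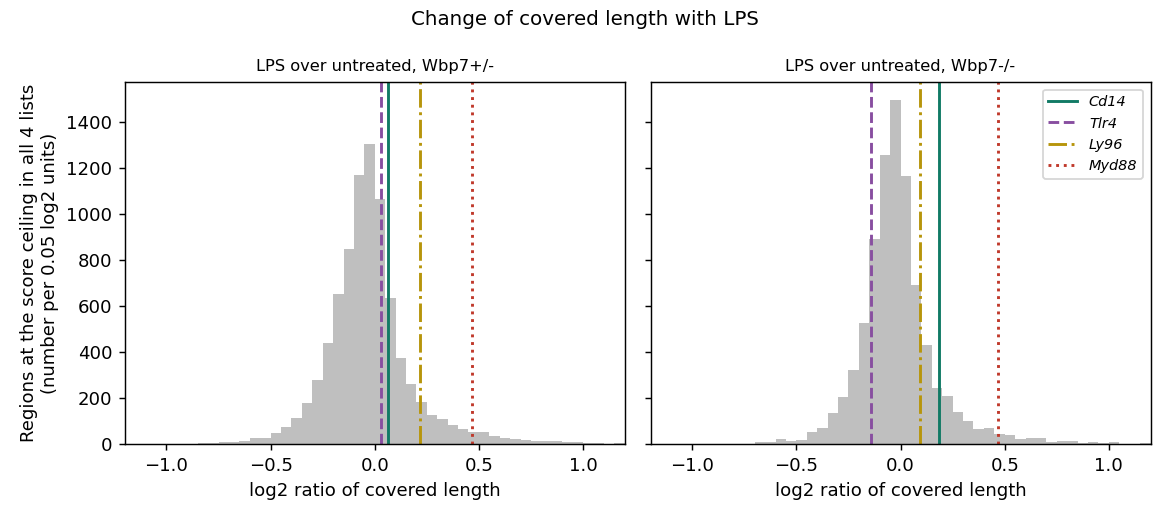
Number of ceiling regions (grey bars) by the log2 ratio of LPS to untreated covered length in Wbp7+/- (left) and Wbp7-/- cells (right), with a line for each gene. Myd88 lies at 0.47 in both panels, in the right tail of the distribution; 10 and 16 of the 8423 regions lie outside the axis.

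Genotype was read in the same way. Without LPS, 1 of the 4 genes (Cd14) was at least 1.1 times shorter in Wbp7-/- than in Wbp7+/- cells and 1 (Tlr4) at least 1.1 times longer, where 18.8% of 13030 regions were shorter and 30.5% longer. After LPS 0 of the 4 passed this fold in either direction, where 21.2% of 13149 regions were shorter and 32.5% longer. The ratios then ran from 0.934 at Ly96 to 0.994 at Tlr4. Of the 8423 ceiling regions, 10.5% were shorter and 27.8% longer without LPS, and 11.1% shorter and 33.6% longer with LPS. The median ratio of the 4 genes was 0.991 without LPS and 0.973 with LPS, against 1.035 and 1.033 over all regions. At no member did the genotypes differ in covered length by more than 554 bp, the value at Tlr4 without LPS.

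**Figure D5:**
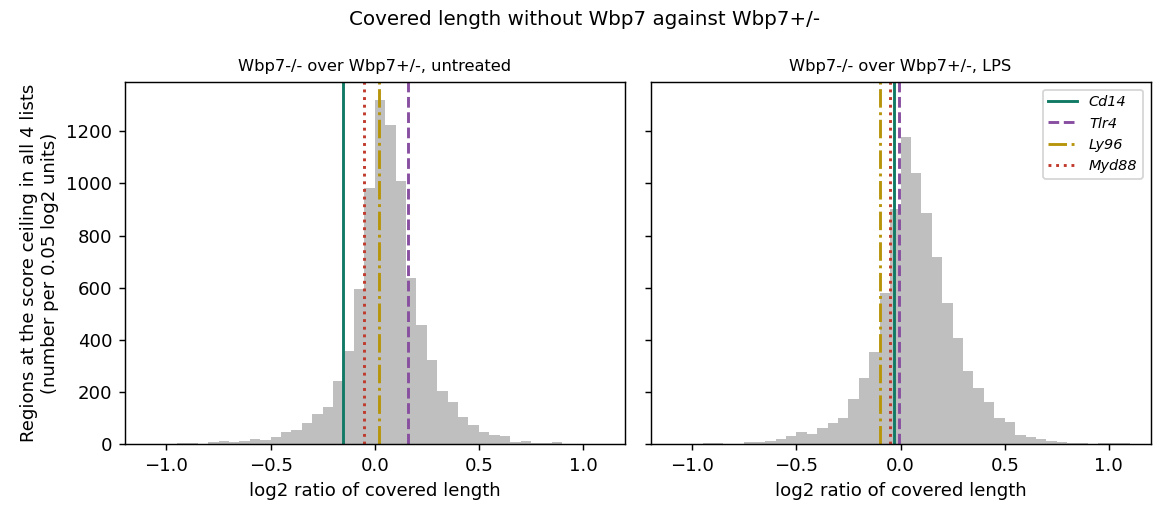
Number of ceiling regions (grey bars) by the log2 ratio of Wbp7-/- to Wbp7+/- covered length without (left) and with LPS (right), with a line for each gene. The 4 genes lie between -0.15 (Cd14) and 0.16 (Tlr4) without LPS and between -0.10 and -0.01 with LPS; 1 and 2 regions lie outside the axis.

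Other regions were ranked by how closely their 4 covered lengths followed those of each gene, as the sum over the lists of the absolute log2 difference. Among 12290 regions with a peak in every list, 15 came within 0.5 of Myd88, against 274 for Cd14, 268 for Tlr4 and 686 for Ly96. The sum compares the lengths themselves, so these counts also depend on how many regions are about as long. Myd88 was longer than at least 96.2% of the regions of each list, and Ly96 than 63.2% to 79.6%. The share of the LPS pattern in these counts was not tested. The closest to Myd88 lay on chromosome 11 from 48679242 to 48686783, with 5597 and 7510 bp in untreated and LPS-treated Wbp7+/- cells and 4988 and 6518 bp in Wbp7-/- cells. The next, on chromosome 19 from 29323523 to 29330977, held 4816 and 7291 bp and then 5145 and 7455 bp. The closest to Ly96 lay on chromosome 9 from 99467299 to 99470320, that to Tlr4 on chromosome 11 from 60743033 to 60748236, and that to Cd14 on chromosome 14 from 67484517 to 67489247. These are likenesses over 4 libraries, and no gene is named for them.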

How the data were processed

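The files are peak lists, 1 for each library. Bowtie and the mm9 build are named in the submitters' processing notes, and MACS made the peak calls, per the file headers, which also hold the word input. For tool versions, the threshold of the caller and read depths, nothing is given in the sources used here. Column 5 holds the score that the authors deposited for each peak, taken as the caller's own and used only within a list. Groups came from the sample titles. Starts are counted from 1.

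Peaks of the 4 lists were joined into regions where they overlapped by at least 1 bp, in pandas 2.3.3 and numpy 2.4.6 under Python 3.11.15. Covered length is the sum of a list's peak widths in a region. Ratios were set beside those of all regions with a peak in both lists and of the 8423 ceiling regions, as a description and not a test. With 1 library per group no test was run. The joining was tested on simulated data, lists with 200 peaks made longer by known amounts, and recovered 200 of them. Only peaks with free space after them were lengthened, and no noise or split was added. The test therefore checks the calculation and not the values at the 4 genes. Figures were drawn with matplotlib 3.10.9. The members, folds and lists were chosen with earlier results of these data known. The text names all 4 genes, the 2 closest regions to Myd88 and the closest to each other gene, and the nearest region on either side of each gene. Lists of other Toll-like receptor pathway genes and of macrophage markers were not used, since they need an mm9 annotation. Alternatives were other scores, windows, list lengths, folds and width measures.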

Additional observations from a re-analysis of the deposited data

Results flagged for a closer look

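Differences in covered length that had opposite signs in groups under the same contrast are given here. At Tlr4 LPS-treated minus untreated length was 94 bp with 1 copy of Wbp7 and -488 bp without the gene. There Wbp7-/- minus Wbp7+/- length was 554 bp without LPS and -28 bp with LPS. These 4 values come from the same 4 peaks. At Ly96, Wbp7-/- minus Wbp7+/- length was 40 bp without LPS and -197 bp with LPS. The difference between the groups was not tested in any of these cases, since each group held 1 library.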

How the results depend on the processing

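No paired analysis was possible because each group held 1 library and the labels give no replicate numbers that groups share. Counts under the alternatives numbered 37, and 29 of these were within 1.5 times the reported one. The 29 include counts that could not change, so their share does not show how stable the results are. The 8 that moved were all counts of longer or shorter genes. All 4 genes kept a peak in every list with scores of at least 100 and with ceiling peaks alone. Both outcomes were fixed in advance, since all 17 peaks scored 3100. Leaving out the LPS-treated Wbp7+/- list (chosen after seeing the data) could not change presence in the remaining lists, where all 4 had a peak. All 4 also had a peak in each list with windows narrowed by 3 kb on both sides, and in all lists with lists of equal length. A cut by score to the 14599 peaks of the shortest list could not remove the 17 peaks either. No list held more than 9695 peaks at or above the ceiling. With the lower of the stricter folds tried, genes longer after LPS numbered 1 in each genotype and genes shorter without Wbp7 in untreated cells 0. With a fold of 1.5 these 3 counts were 0, 0 and 0. By the widest single peak, genes longer after LPS numbered 1 in Wbp7-/- cells and genes shorter without Wbp7 after LPS numbered 1, through the split peak of Myd88. Joining peaks within 1 kb moved no count. Without the LPS-treated Wbp7+/- list, the LPS comparison rests on Wbp7-/- cells, where 2 genes were longer. Unknown depth limits every edge position.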

Other observations

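Regions next to the 4 genes give local context. Near Myd88, the neighbours 11.8 kb to the lower side and 13.3 kb to the higher side were not longer with LPS. The first covered 3275 and 3137 bp in untreated and LPS-treated Wbp7+/- cells and 3696 and 3321 bp in Wbp7-/- cells. The second covered 1257 and 1205 bp, and then 1425 and 1388 bp. Both neighbours were longer in Wbp7-/- than in Wbp7+/- cells in either treatment, with ratios from 1.059 to 1.152, whereas Myd88 itself had ratios of 0.966 and 0.967. The median of this ratio over the ceiling regions was also above 1, at 1.039 without and 1.046 with LPS. Ratios as low as those of Myd88 were seen for 20.9% and 21.4% of the ceiling regions.

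Near Cd14 the nearest region lay 6.2 kb away on chromosome 18, from 36893348 to 36895981, outside the window. It covered 1738 and 2423 bp in untreated and LPS-treated Wbp7+/- cells and 1697 and 2632 bp in Wbp7-/- cells. Its LPS ratios of 1.394 and 1.551 exceed those of Cd14, but unlike Cd14 it was below the ceiling in all 4 lists. The scores were 2056.82 untreated and 2699.97 after LPS in Wbp7+/- cells, and 1862.88 and 1334.42 in Wbp7-/- cells. On the other side, 18.6 kb away, the region from 36861714 to 36863934 had a peak in both Wbp7-/- lists only, with scores of 445.93 untreated and 469.16 after LPS. Such regions made up 2.07% of all regions. Near Ly96, the region 20.7 kb to the lower side, on chromosome 1 from 16654796 to 16657040, was at the ceiling in all 4 lists. It covered 1947 and 1824 bp in untreated and LPS-treated Wbp7+/- cells and 2160 and 2089 bp in Wbp7-/- cells, genotype ratios of 1.109 and 1.145. The next region on the higher side, 406.0 kb away from 17086752 to 17088211, had a peak in both Wbp7+/- lists only, as did 10.9% of all regions.

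The neighbours of Tlr4 on chromosome 4 were both at the ceiling in all 4 lists. The one from 65265405 to 65267200, 1220.8 kb away, had genotype ratios of 1.194 without and 1.132 with LPS. The one from 70070111 to 70072394, 3576.9 kb away, had ratios of 1.122 and 1.194. These neighbours were looked at without a mm9 gene annotation, and no gene is named for them.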
